A study of Mus musculus with 16 samples.

Results

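Fatty acid synthesis was followed through 10 genes in maps of open chromatin from 8 mouse tissues under fasting and fed conditions. The genes were Fasn, Acaca, Acacb, Acly, Scd1, Elovl6, Srebf1, Mlxipl, Me1 and Thrsp, chosen by name from the pathway and compared with the 21911 protein-coding genes of the annotation used, GENCODE vM21 on the mouse genome build GRCm38. ATAC-seq, which uses a transposase (Tn5) to cut and tag DNA free of nucleosomes, gave the chromatin accessibility. The tissues were kidney, lung, heart, spleen, muscle, liver and the brown and white adipose of male C57BL/6 mice that were either fed or fasting, the latter for 24 h per the study's methods. Each of the 16 libraries was 1 tissue in 1 condition, pooled from the 3 mice of a group, which had arrived at 12 weeks of age. No library was replicated. The labels name no allele, transgene or drug in any group. In whole tissue, fewer cells of a type and less open chromatin per cell cannot be told apart.

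De novo lipogenesis turns surplus carbohydrate into fat. Citrate leaves the mitochondrion and is split by ATP citrate lyase (Acly) into acetyl-CoA, which the acetyl-CoA carboxylases (Acaca in the cytosol, Acacb at the mitochondrial surface) turn into malonyl-CoA, and fatty acid synthase (Fasn) builds palmitate from both with NADPH that malic enzyme (Me1) helps to supply. Elovl6 lengthens palmitate, and Scd1 puts a double bond into the product. Srebf1 encodes SREBP-1, a sterol-regulated factor that insulin activates, Mlxipl encodes the glucose-responsive factor ChREBP, and Thrsp encodes a small protein of lipogenic cells that responds to thyroid hormone and carbohydrate. Liver and both adipose tissues are the classical sites of the pathway and are called the lipogenic tissues below, against muscle, spleen, heart, lung and kidney.

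The values were peaks that the authors called in each library. A peak's strength is given as a percentile by significance within its own list of 298996 to 299529 rows. The strongest peak is at 100, and a missing peak counts as 0. Percentiles were used since the lists are not scaled to each other. A promoter peak has its summit within 3000 bp of an annotated start. An element is an interval reaching 250 bp to each side of a summit in any library, and the elements of a gene are those in its body extended by 10 kb at each end. The depth, given as the genome background of tags expected at any position, ran from 2.80 tags in fed liver to 12.8 in fed brown adipose. It differed between conditions by up to a log2 ratio of -0.92, in brown adipose.

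The tissue labels were checked against 8 lists of 5 marker genes. Each list was strongest in its own tissue, except that the white adipose list (Adipoq, Lep, Plin1, Retn and Cidec) had a higher mean in brown adipose (92.6 fed, 93.6 fasting) than in white adipose (88.6 and 91.5). All 5 of its promoters were listed in each adipose library, 3 to 4 in liver and 1 to 5 in the other tissues. The sum of their percentiles was 443 to 468 in adipose, 250 to 288 in liver and 69.6 to 313 elsewhere. This list thus set adipose apart, with liver inside the range of the other tissues. Its part in the results for the lipogenic grouping below was not tested. The liver list was shared in part with kidney, where 4 of its 5 promoters were listed fed and 5 fasting (means 58.6 and 66.0). Fed white adipose listed 3 of them, and every other library outside liver listed 1. The fed white adipose library stood apart. Of 15 genes known from the epididymis, a list written after the data had been seen, 11 had a promoter peak there, against 3 in fasting white adipose and 2 to 7 in the other 14 libraries, and those of Adam7 and Spint4 were listed in no other library. Results for the lipogenic tissues are therefore also given without it.

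The sequences that follow are a selection from the elements and starts whose values are described further below. The 6 elements have the largest difference between lipogenic and other tissues in the window of Fasn, Acly, Acaca, Me1 and Thrsp among elements over 3000 bp from a start of the gene, and for Srebf1 among those nearer, which was chosen after the values were seen. Each is 201 bases of the RefSeq sequence of GRCm38.p6, centred on the element and written 5′ to 3′ on the strand of the gene. Capitals mark motif matches on either strand to TCACNCCAC (a sterol response element), CACGTG (an E-box), CCAAT (the box bound by NF-Y), GGGCGG (a GC box), AGGTCA (a nuclear receptor half-site), TGTTTAC (a forkhead motif) or TTGCGCAA (a C/EBP motif). The last 2 were added to the search after the data had been seen.
Fasn, chr11:120830748-120830948, minus strand: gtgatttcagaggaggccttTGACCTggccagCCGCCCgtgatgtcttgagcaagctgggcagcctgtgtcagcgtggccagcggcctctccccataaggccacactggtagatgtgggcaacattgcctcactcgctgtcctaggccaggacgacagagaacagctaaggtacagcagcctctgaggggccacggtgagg
Acly, chr11:100504986-100505186, minus strand: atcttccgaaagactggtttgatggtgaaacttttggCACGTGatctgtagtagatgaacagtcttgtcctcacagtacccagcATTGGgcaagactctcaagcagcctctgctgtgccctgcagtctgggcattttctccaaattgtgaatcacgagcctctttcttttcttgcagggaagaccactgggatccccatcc
Acaca, chr11:84219002-84219202, plus strand: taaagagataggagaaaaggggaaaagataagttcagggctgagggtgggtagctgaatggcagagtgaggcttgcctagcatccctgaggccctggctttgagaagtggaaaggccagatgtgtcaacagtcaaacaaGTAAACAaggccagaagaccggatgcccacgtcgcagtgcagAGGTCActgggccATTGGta
Srebf1, chr11:60224830-60225030, minus strand: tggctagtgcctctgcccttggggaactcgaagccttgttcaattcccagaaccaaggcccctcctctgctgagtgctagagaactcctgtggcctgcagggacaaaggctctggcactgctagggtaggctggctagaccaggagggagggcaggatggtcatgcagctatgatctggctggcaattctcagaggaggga
Me1, chr9:86643630-86643830, minus strand: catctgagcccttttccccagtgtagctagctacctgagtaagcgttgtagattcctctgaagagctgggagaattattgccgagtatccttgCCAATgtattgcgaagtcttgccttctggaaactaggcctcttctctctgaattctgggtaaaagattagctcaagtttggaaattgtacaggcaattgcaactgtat
Thrsp, chr7:97420998-97421198, minus strand: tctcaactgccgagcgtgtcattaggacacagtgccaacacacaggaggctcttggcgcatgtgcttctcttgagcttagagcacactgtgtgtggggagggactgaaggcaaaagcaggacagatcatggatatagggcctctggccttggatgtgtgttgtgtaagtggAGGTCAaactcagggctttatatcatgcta

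Another 3 stretches are the 200 bases before annotated starts whose accessibility differed between tissues, also chosen after the values were seen.
Acaca, start at 84173122, chr11:84172922-84173121: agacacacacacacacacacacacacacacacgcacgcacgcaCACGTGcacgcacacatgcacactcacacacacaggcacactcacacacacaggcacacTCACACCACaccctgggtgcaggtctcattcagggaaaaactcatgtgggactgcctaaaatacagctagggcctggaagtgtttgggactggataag
Mlxipl, start at 135089890, chr5:135089690-135089889: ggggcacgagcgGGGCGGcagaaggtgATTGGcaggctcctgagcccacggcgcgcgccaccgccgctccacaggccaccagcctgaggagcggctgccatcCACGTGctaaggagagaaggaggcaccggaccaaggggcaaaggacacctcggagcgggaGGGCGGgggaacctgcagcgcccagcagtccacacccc
Elovl6, start at 129552380, chr3:129552180-129552379: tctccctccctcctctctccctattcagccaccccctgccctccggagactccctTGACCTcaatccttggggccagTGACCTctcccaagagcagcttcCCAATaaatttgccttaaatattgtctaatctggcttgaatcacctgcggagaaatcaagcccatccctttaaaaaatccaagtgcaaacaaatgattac

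The Acaca stretch held a sterol response element and an E-box, and the Mlxipl stretch held an E-box, a CCAAT box and a pair of GC boxes. Both Acaca matches lie in a run of mostly repeated CA. The shares given next are over sequence of all kinds and are no background for such a repeat. Among 201-base windows of all 495794 elements tested, 0.945% held TCACNCCAC, 3.67% CACGTG, 21.1% CCAAT, 8.93% GGGCGG, 16.8% AGGTCA, 3.15% TGTTTAC and 0.0762% TTGCGCAA. Among the 200 bases before each of the 21911 protein-coding genes the shares were 0.867%, 5.64%, 31.7%, 37.5%, 10.3%, 2.05% and 0.128% in the same order. Of the 34 member elements that were higher in the lipogenic tissues (below), 2 held the sterol response element, 2 the E-box, 11 CCAAT, 3 the GC box, 9 the half-site, 2 the forkhead motif and 0 the C/EBP motif. A match describes letters only and says nothing of a bound factor.

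The promoters of the pathway were open nearly everywhere. A promoter peak was listed in all 16 libraries for 9 of the 10 genes, and Thrsp had one in 15. Of all protein-coding genes, 61.4% had a promoter peak in all 16. The count was also 9 with peaks of q under 0.01 alone (59.8% of all genes), with a window of 1000 bp (57.2%), and with all libraries scaled to equal depth (54.2%). Of the 24 other genes of fat synthesis examined (among them fatty acid desaturases, acyltransferases and regulators of SREBP), 22 had one in all 16 libraries, and the exceptions were Elovl3 with 13 and Pklr with 9.

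Acaca had the strongest promoter of the set. Its percentile ran from 97.9 in fed brown adipose over a median of 99.8 to 99.9 in fasting muscle. The summit held 138 tags in fed and 294 in fasting liver, which is 49.3 (95% Poisson interval 41.4 to 58.2) and 104 (92.7 to 117) times the background. The intervals cover counting error only. The enzymes that make the substrate and the product chain were nearly as strong. Acly ranged from 93.7 in fasting heart to 99.8 in fed lung with a median of 98.96, and Fasn ranged from 88.4 in fasting heart to 96.7 in fasting brown adipose with a median of 94.9. Fasn was lowest in liver (89.7 fed, 92.7 fasting) by the mean of both conditions, although no tissue was separated from its neighbour in that order. In liver the strongest Fasn peak within the window lay 2824 bp (fed) and 2817 bp (fasting) downstream of an internal start. This placed it just past the annotated 3′ end of the gene. The peak within 1000 bp of the main start was at 89.3 and 92.7.

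Among the regulators, Srebf1 stayed between 93.0 and 98.1 in all 16 libraries. Mlxipl was highest in liver (99.3 fed, 99.2 fasting) and then in kidney (97.7 and 97.5), both conditions of each tissue being separated from the tissue below, and lowest in fasting spleen (82.6). The liver and kidney values came from its outermost start, described below. For Scd1 the fed and fasting values were 94.9 and 90.2 in liver. Brown adipose gave 91.4 and 94.9, and white adipose 94.6 and 89.3. It was at 91.9 and 90.1 in lung, 87.5 and 84.3 in muscle, 90.7 and 77.2 in heart, 81.2 and 82.0 in spleen, and 76.0 and 77.0 in kidney. The lipogenic tissues thus held the highest 3 places by tissue mean, and they overlapped lung and heart but not muscle, spleen or kidney.

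Thrsp and Me1 were weak in spleen. Thrsp was not listed in fed spleen and reached 35.0 in fasting spleen, from 20 tags 2903 bp upstream of the start, and no peak lay within 1000 bp of its start in either. Its other 14 libraries ran from 61.9 in fasting kidney to 93.2 in fasting brown adipose, so that spleen did not overlap them. Me1 stood at 45.9 in fed and 74.5 in fasting spleen and between 80.9 and 91.6 in the other 14 libraries. Both spleen values of Me1 came from an internal start 77216 bp into the gene, and the peak within 1000 bp of the main start was at 21.5 in fed spleen and was not listed in fasting spleen.

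**Figure D1:**
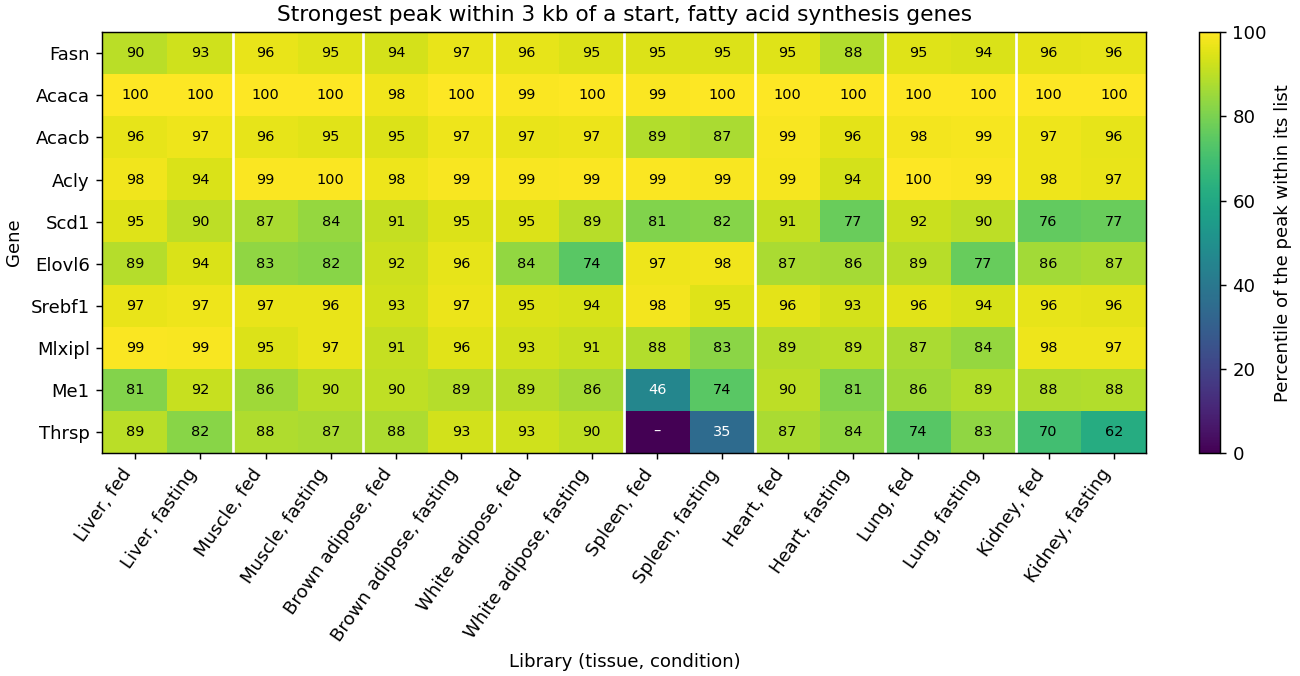
Percentile of the strongest peak within 3 kb of a start for each gene (rows) in each of the 16 libraries (columns, tissue and condition); a dash marks no listed peak. Acaca and Acly are near 100 in every column, whereas Thrsp and Me1 drop in spleen.

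By the tissue contrast, no promoter passed. The mean percentile in the 3 lipogenic tissues was compared with that in the other 5 by an exact permutation test over all 56 choices of 3 tissues, two-sided, whose smallest p is 0.0179, and adjusted by Benjamini-Hochberg (BH) over the 18858 genes with a promoter peak in at least 2 libraries. Unadjusted, 3.64% of all genes had p under 0.05 and 0 of the 10 members did. After adjustment 0 genes passed, and limma on log2 fold gave 218 of 13458 genes unadjusted and 0 adjusted. Scd1 came nearest, at 92.5 against 83.8 (difference 8.77 points, exact permutation p = 0.0536, BH p = 0.993). That order rested on ranking by significance, since ranking by fold enrichment gave -0.25 points (exact permutation p = 0.929). Thrsp showed the widest gap, at 89.3 against 67.1 (difference 22.2 points, exact permutation p = 0.196), and 9.84 points of it remained when spleen was left out. For the other 8 the differences lay between -0.62 and 6.19 points. Among the 24 further genes of the pathway, 1 had p under 0.05, Elovl3, a fatty acid elongase of brown fat and skin, at 83.3 in lipogenic and 25.7 in other tissues (exact permutation p = 0.0179, BH p = 0.970).

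The promoter value is that of the strongest peak over all starts of a gene, so single starts can vary more than it does. Starts of a gene within 3000 bp of each other were grouped, and the strongest peak within 1000 bp of each group was taken. These levels are given as a description with no test, and the starts described were chosen after their values were seen. Acaca was open at its first annotated start (88.8 to 97.0) and at a start 50159 bp downstream (97.9 to 99.9) in all 16 libraries. Between them, at a start 43450 bp into the gene, a peak was listed in the 6 lipogenic libraries alone. Fed and fasting liver were there at 79.7 and 68.6. Brown adipose was at 87.2 and 94.2, and white adipose at 76.7 and 88.3. None of the 10 other libraries had a peak. This is the start whose upstream bases hold the matches to the sterol response element and the E-box printed above, both within a run of mostly repeated CA.

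Mlxipl also had a tissue pattern at its outermost start. Fed and fasting liver were at 99.3 and 99.2, and kidney at 97.7 and 97.5. Brown adipose followed with 85.4 and 85.5, then white adipose with 34.5 and 59.7. Fed muscle had a peak at 1.29, and fasting muscle, spleen, heart and lung had none. GENCODE gives no protein-coding transcript from this start, whereas a group 17001 bp downstream that has one was open in all 16 libraries (78.8 to 96.6). In that group the order of tissues was another. Muscle was highest by the mean (94.8 fed, 96.6 fasting), liver was at 91.3 and 85.6, and kidney was lowest at 83.4 and 80.1. Another group, 43720 bp in, was at 88.4 and 82.6 in spleen and 85.0 and 84.0 in lung and between 0 and 64.3 elsewhere.

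Elovl6 and Acacb also had starts that differed in their tissue pattern. The main start of Elovl6 was strongest in brown adipose (92.3 fed, 96.2 fasting) and liver (88.8 and 94.3) and weakest in muscle (56.6 and 39.0). An Elovl6 start 20025 bp downstream was at 97.3 and 97.9 in spleen, was at 89.1 and 74.8 in lung, and was not listed in liver. The high Elovl6 promoter value in spleen thus came from that start. For Acacb the start 29371 bp into the gene was open in all 16 libraries (87.5 to 98.9), and the outermost start was at 93.5 and 94.99 in muscle, where the enzyme is known to regulate fat oxidation. There it was at 76.9 and 92.0 in liver, 91.9 and 93.3 in brown adipose and 85.8 and 82.9 in heart, at 0 and 30.7 in spleen, and unlisted in lung. Srebf1 was open at both of its upstream start groups everywhere (90.5 to 96.3 and 91.5 to 98.1).

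**Figure D2:**
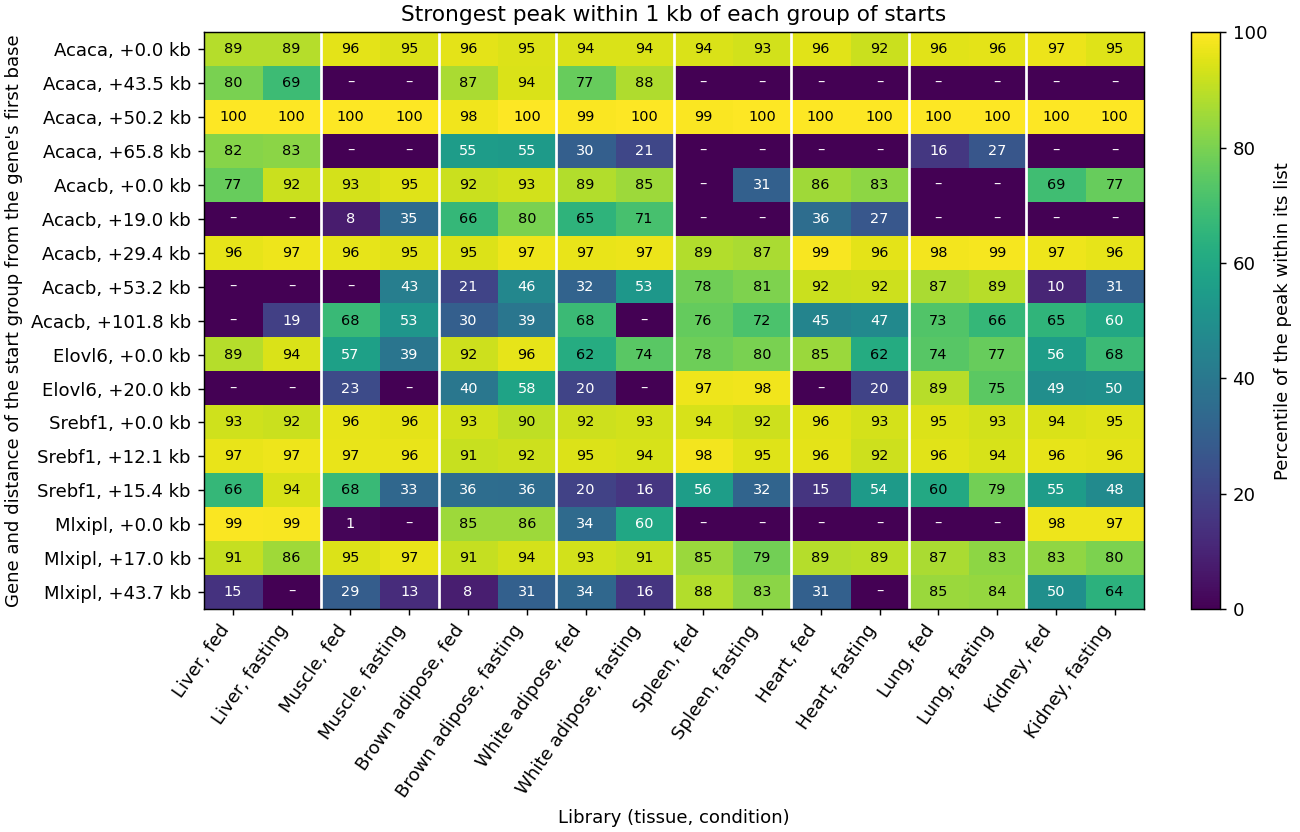
Percentile of the strongest peak within 1 kb of each group of annotated starts of Acaca, Acacb, Elovl6, Srebf1 and Mlxipl (rows, with the distance from the outermost start in kb) in the 16 libraries (columns). The Acaca group 43450 bp from the outermost start has values in the liver and adipose columns only, and the outermost Mlxipl group is near 100 in liver and kidney.

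Single elements in the windows of the genes were compared next. The windows of the 10 genes held 514 elements with q under 0.01 in at least 2 libraries, 362 of them over 3000 bp from a start of the gene. In all 16 libraries a peak was listed at 38 of the 514, against 6.78% of all 495794 elements tested. The median difference between lipogenic and other tissues was 6.48 points over the 514 and -3.52 over all elements, and 63.6% of the 514 against 39.6% of all were higher in the lipogenic tissues. By the same exact permutation test, 34 elements (6.61%) were higher in the lipogenic tissues at an unadjusted p under 0.05, against 1.79% of all elements, and 3 were lower, against 0.581% of all. The share higher was 6.58% of the 152 elements within 3000 bp of a start and 6.63% of the 362 farther away. An element with peaks in lipogenic libraries alone passed the filter through those libraries, here as in the whole genome. No element of the genome passed BH adjustment, for which 1.55% of the elements shared the smallest p of 0.0179. With 1 tissue left out, the number higher ran from 23 to 73, and it was 71 without liver and 73 without white adipose, against 6.02% and 2.76% of all elements.

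A stricter count asked for elements with all 6 lipogenic libraries above all 10 others. There were 7 among the 514, 3 of them within 3000 bp of a start, 1 each in the windows of Fasn, Acaca, Acly, Scd1, Srebf1, Mlxipl and Me1, while 0.396% of all elements did so. Of all protein-coding genes, 6.24% had such an element in their window, against 7 of the 10 members. The windows differed in length, with a median of 70070 bp for the members and 37433 bp for all genes. Without the fed white adipose library the count was 10 elements in 8 genes, and 0.598% of all elements.

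The elements below were chosen for their difference between lipogenic and other tissues, so their values are a description with no test. Srebf1 had the widest of these gaps, at an element 2349 bp upstream of its outermost start, between Srebf1 and Tom1l2. Liver was at 75.1 fed and 80.7 fasting, brown adipose at 92.6 and 96.9, and white adipose at 90.3 and 90.7. Fed kidney was at 33.0 and the other 9 libraries had no peak, so the groups did not overlap. The means were 87.7 and 3.30 (difference 84.4 points). Next came the element at the Acaca start described above, with a difference of 82.4 points (82.4 against 0). Both lie within 3000 bp of a start and were named after their values were seen, and in fasting brown adipose the Srebf1 element was the strongest promoter peak of the gene.

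Among the distal elements, the one of Fasn lay at -6.3 kb, upstream of the gene, in an intron of the neighbouring gene Ccdc57 and 181 bp from a start of the non-coding gene Gm11773. Fed and fasting liver were at 98.3 and 98.4 and brown adipose at 95.2 and 95.8. White adipose was at 92.5 and 93.9, and kidney at 75.2 and 81.6. Fed muscle was at 11.2, fed spleen at 27.9, and the remaining 6 libraries had no peak. In liver this element ranked above the Fasn promoter itself. Summit tags were 31.8 (25.5 to 39.1) times the background in fed and 59.2 (50.6 to 68.9) in fasting liver, and 54.8 (50.8 to 59.0) fed and 27.5 (23.7 to 31.8) fasting in brown adipose. This ratio differed in the same directions at the Acaca promoter (49.3 and 104 in liver, 83.9 and 60.5 in brown adipose), while the percentiles of the Fasn element differed by under 1 point between conditions in both tissues. The lipogenic mean was 95.7 and the other mean 19.6 (difference 76.1 points). The groups did not overlap, with kidney nearest below.

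The Acly element was intronic, 22.9 kb into the gene, and its 201 bases above reach into a coding exon. It was at 79.8 and 77.2 in liver, at 70.9 and 89.9 in brown and 85.1 and 90.1 in white adipose, at 11.1 and 42.5 in fed and fasting lung, and unlisted in the other 8 libraries (difference 76.8 points). The Mlxipl element, in an intron 11.4 kb from the outermost start, was at 93.0 and 92.7 in liver, at 58.4 and 72.0 in brown and 62.8 and 84.9 in white adipose, and at 12.7 and 58.2 in kidney (difference 70.2 points). Both separated the 6 lipogenic libraries from the rest, for Mlxipl by the narrow margin of 58.4 against 58.2. An Acaca intronic element at 89.4 kb was at 95.9 and 95.05 in liver, 77.0 and 86.5 in brown adipose and 73.8 in fasting white adipose, and was unlisted in fed white adipose and in the other tissues (difference 71.4 points).

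Me1 and Thrsp had weaker elements of this kind. The intronic Me1 element at 52.2 kb was at 66.4 and 92.1 in liver, at 88.3 and 84.5 in brown and 69.1 and 81.1 in white adipose, and at 67.2 and 65.5 in kidney, with 0 to 18.8 elsewhere (difference 63.0 points). Fed liver was below fed kidney there, and the Me1 element that separated all 6 libraries was another, in an intron 3.0 kb into the gene (difference 48.5 points). The Thrsp element at -3.4 kb was at 44.9 and 63.9 in liver, at 84.6 and 80.3 in brown and 83.1 and 70.3 in white adipose, with fed muscle at 46.4 as the highest of the others (difference 54.2 points). A nearer Thrsp element, named after its values were seen, 1179 bp upstream of the start, was at 82.2 to 93.2 in the lipogenic libraries, 74.1 and 83.4 in lung and at most 56.7 in the rest (difference 55.03 points). It was the strongest Thrsp promoter peak in the lipogenic tissues and lung, where the other tissues had their strongest peak at the start itself, apart from spleen.

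Scd1, Acacb, Elovl6 and the distal Srebf1 element overlapped more. The Scd1 element at -8.5 kb was at 87.1 to 98.0 in the lipogenic libraries, 91.0 and 82.1 in muscle, 74.9 and 74.1 in spleen and 74.0 and 75.3 in kidney, and unlisted in heart and lung (difference 48.1 points). At the Scd1 start itself, an element in an untranslated exon, also named after its values were seen, was at 94.9 and 90.2 in liver, at 90.9 and 89.9 in brown and 83.6 and 84.9 in white adipose, and at 76.0 or below in all other libraries (difference 25.1 points, and 16.5 by fold enrichment). Acacb had an intronic element at 10.9 kb with 78.5 to 95.1 in the lipogenic libraries and up to 87.9, in fasting muscle, in the others (difference 61.9 points). Elovl6 had one at 60.9 kb that kidney shared, at 83.5 and 81.8, and that fasting white adipose lacked (difference 54.0 points). For Srebf1 the distal element with the largest gap lay in an exon of Tom1l2 and was highest in kidney (94.8 and 95.3), with a difference of 30.7 points.

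**Figure D3:**
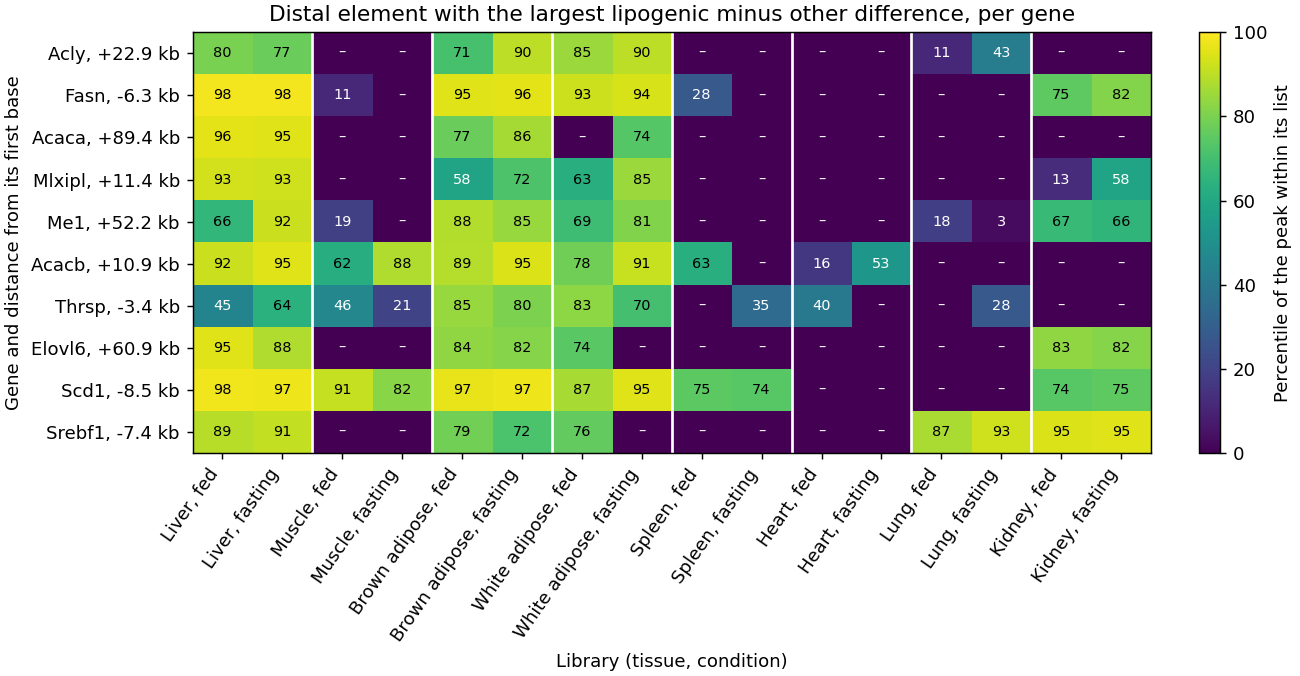
Percentile of the peak at the distal element with the largest lipogenic minus other difference for each gene (rows, with the distance from the gene's outermost start in kb) in the 16 libraries (columns); a dash marks no listed peak. Liver and both adipose tissues are filled in nearly all rows, and kidney is filled in the Fasn, Mlxipl, Me1, Scd1, Elovl6 and Srebf1 rows.

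**Figure D4:**
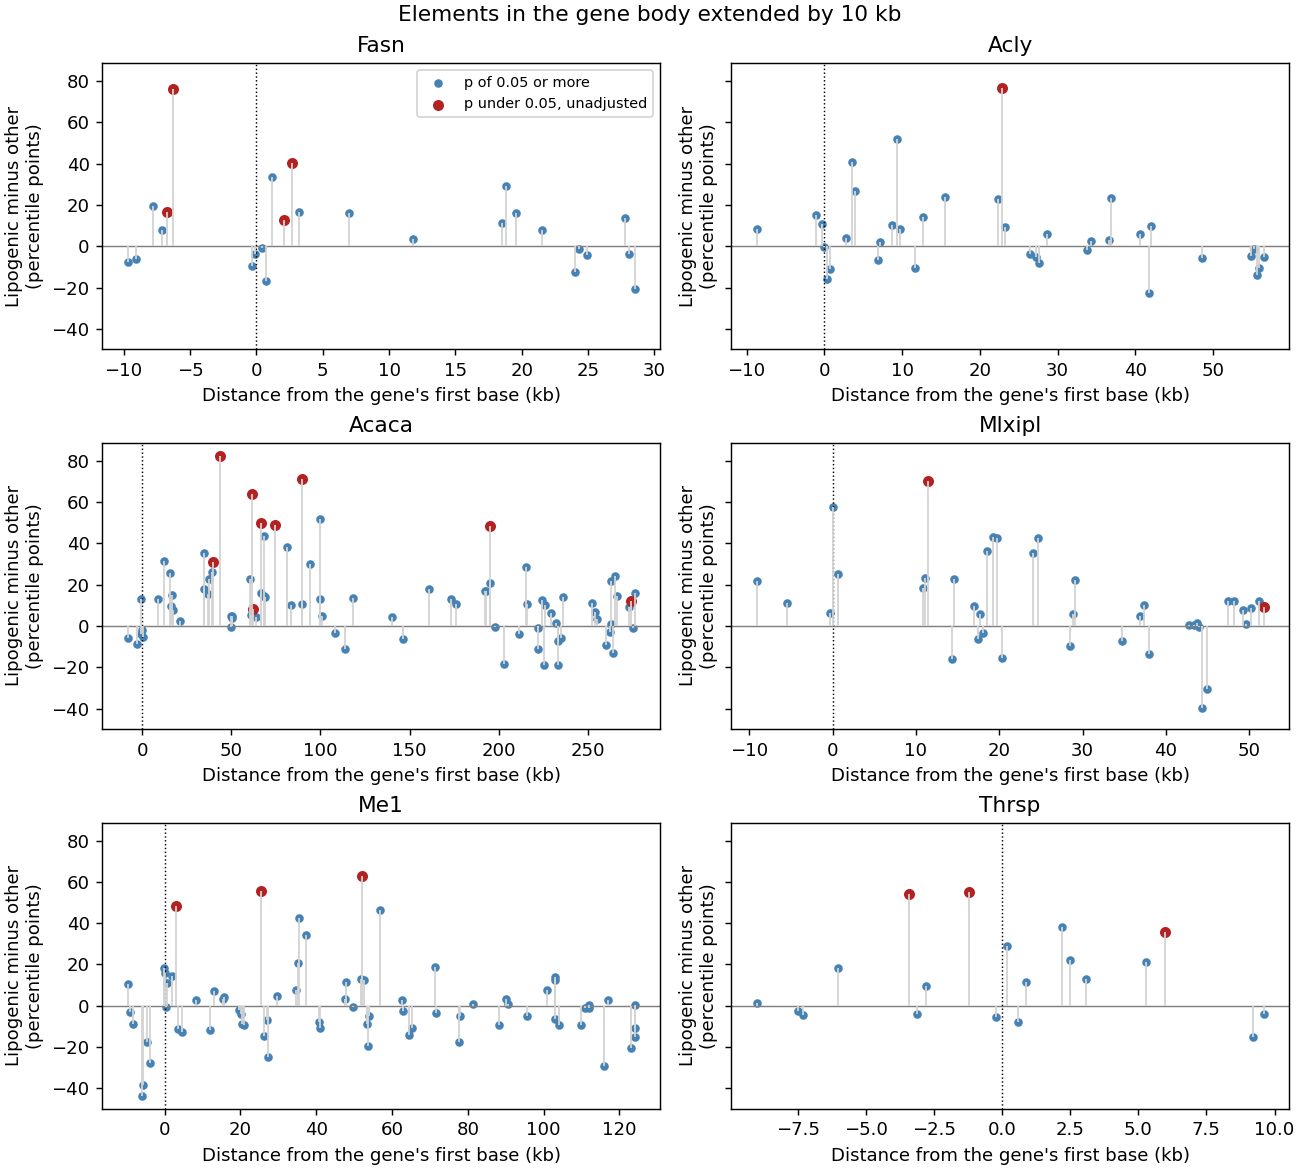
Difference of mean percentile, lipogenic minus other tissues, for every element in the windows of 6 genes against its distance from the gene's outermost start in kb; red points have an exact permutation p under 0.05, unadjusted. The tall red points are the elements described above, among them Fasn at -6.3 kb with 76.1 points.

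Elements with the opposite order were rarer and smaller. In the distal windows the largest difference in favour of the other tissues was -43.57 points, for an intergenic Me1 element at -6.0 kb, and over the 10 genes these extremes ran from -43.57 to -3.49 points. The strongest distal elements over all libraries lay at a start of a neighbouring gene for 2 of the 10, Klhl11 in the Acly window and Pgm3 in the Me1 window. Those of Srebf1, Acaca and Elovl6 lay 1409, 1533 and 1715 bp from a start of another gene. They were listed in all 16 libraries for 8 of the 10, which choosing by the highest mean favours, since a missing peak counts as 0.

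Between fasting and fed libraries the promoters differed little. The mean of fasting minus fed over the 8 tissues was tested by all sign flips of the 8 differences, two-sided and exact, with a smallest p of 0.00781. The 8 differences share 1 group of fed and 1 group of fasting mice and are not independent animals, so p speaks of the agreement between tissues and not of the spread between mice. Unadjusted, 5.49% of all 18858 genes had p under 0.05, and 1 of the 10 members did, Acaca, by 0.30 points (99.8 against 99.5, higher in 7 of 8 tissues, exact permutation p = 0.0469, BH p = 0.854). Leaving out 1 tissue kept that p under 0.05 only where the tissue was heart. Without brown adipose the mean was 0.08 points (exact permutation p = 0.0938), and p was also above 0.05 by fold enrichment, at equal depth and by limma. After adjustment 0 genes passed, and limma gave 512 of 13458 unadjusted and 0 adjusted. The remaining means ran from -2.90 points for Scd1 (exact permutation p = 0.148) to 3.98 for Me1 (exact permutation p = 0.406), with 7 of the 10 genes lower in fasting by the mean and 3 higher, against 45.2% of all genes higher. By fold enrichment 6 of those 7 (Fasn, Acly, Scd1, Elovl6, Srebf1 and Mlxipl) were higher in fasting instead. Of the 24 other pathway genes, 1 had p under 0.05, Mbtps1, the site-1 protease that releases SREBP, at -0.42 points (exact permutation p = 0.0391, BH p = 0.840).

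Single tissues shifted by at least 10 percentile points in few cases. Me1 was 10.2 points higher in fasting than in fed liver, where 22.7% of all genes shifted that far. In spleen 2 members did, Me1 by 28.6 and Thrsp by 35.0 points, against 17.3% of all genes. Scd1 was 13.5 points lower in fasting heart, with -13.5 the lowest value of all members, against 17.3% of genes there, and Elovl6 was lower by 12.2 points in fasting lung (-12.2), against 10.5%. No member shifted that far in muscle, brown adipose, white adipose or kidney, where 9.87%, 13.4%, 16.5% and 8.21% of genes did. With 1 library per tissue and condition these shifts have no test.

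The direction over the members differed between tissues. In brown adipose 9 of the 10 promoters were higher in fasting, against 45.2% of all genes, with Thrsp at 5.70 points the widest and Me1 the exception. The count was also 9 by fold enrichment and at equal depth, and the fed library was the deeper there, at 12.8 against 6.76 background tags. The ratio of summit tags to this background went the other way, being lower in fasting for all 10 promoters. For Fasn it was 74.8 fed and 36.8 fasting, and for Thrsp 56.3 and 32.4. The direction in brown adipose thus depended on the measure. In heart 1 of the 10 was higher in fasting, against 46.1% of all genes, and 2 by fold enrichment or at equal depth. In liver 6 of 10 were higher (5 by fold enrichment), against 49.8% of all genes, among them Fasn by 3.005, Elovl6 by 5.28 and Srebf1 within 1 point, and Scd1 was 4.79 and Thrsp 7.31 points lower in fasting (-4.79 and -7.31). These 2 were lower by rank within the list. Their ratio of summit tags to background was 21.4 fed and 20.9 fasting for Scd1, and 22.1 and 24.5 for Thrsp. Their deposited fold enrichment was higher in fasting, at 7.55 fed and 12.1 fasting for Scd1 and 4.53 and 5.13 for Thrsp. In white adipose 3 were higher by significance, against 45.7% of all genes, 2 at equal depth and 7 by fold enrichment, so the direction there depended on the measure. Whether these directions differ between tissues was not tested.

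**Figure D5:**
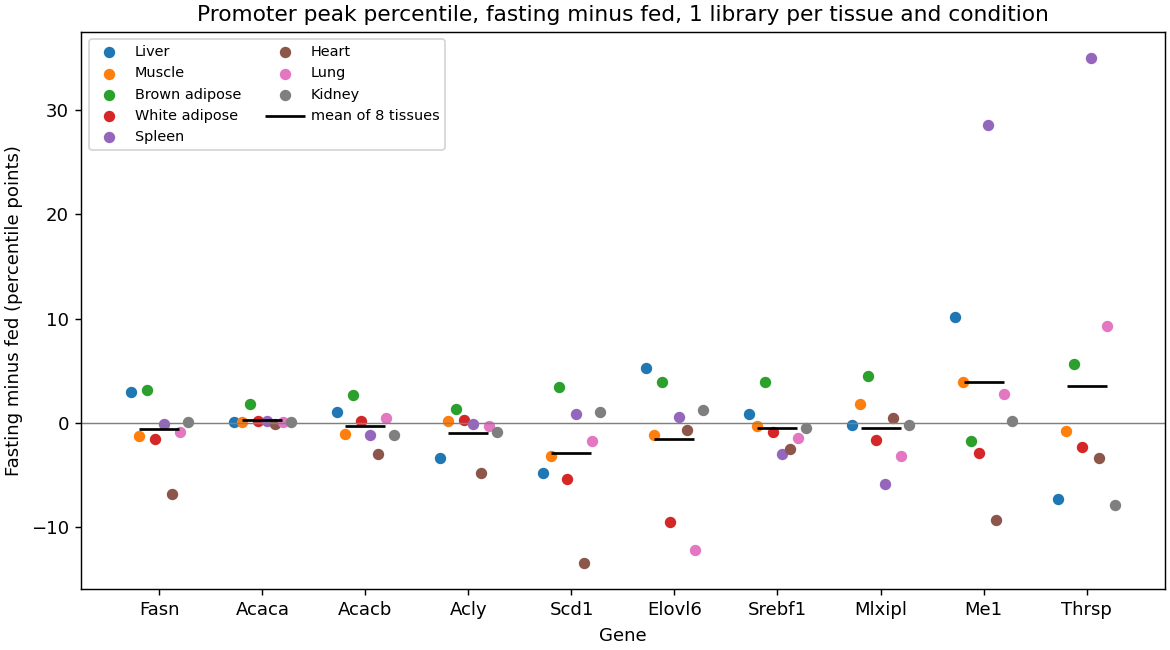
Fasting minus fed difference of the promoter percentile for each gene (x axis), 1 point per tissue, with the mean of 8 tissues as a black bar. The points lie around 0 for Acaca, and the spleen points of Me1 and Thrsp stand highest at 28.6 and 35.0 points. The spleen peaks of these genes held at most 23 tags.

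Among the elements, 15 of the 514 had an exact permutation p under 0.05 for fasting minus fed (2.92%), 5 of them higher and 10 lower in fasting, against 1.62% of all elements. The count was 8 by fold enrichment and 8 to 11 with 1 tissue left out. A low p needs a peak in most tissues, so elements listed in all 16 libraries form the nearer background. Of those, 8.36% had p under 0.05 and 5.96% were lower in fasting, while of the 38 member elements listed in all 16 libraries 9 had p under 0.05 and 8 were lower. No element passed BH adjustment. The lowest p was that of Srebf1 at -0.6 kb, which was lower in fasting in all 8 tissues, with means of 89.9 fed and 84.9 fasting (difference -5.03 points, exact permutation p = 0.00781, the smallest the test can give, BH p = 1). Of all elements, 0.199% had that p, and this one was picked for it.

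At Fasn, neighbouring elements by the start differed in opposite directions. The element at -55 bp averaged 86.4 fed and 76.6 fasting (difference -9.86 points), and the one at -327 bp averaged 43.57 and 70.4 (difference 26.8 points), in part because 3 fed libraries, of liver, muscle and spleen, listed no summit there. The whole Fasn promoter differed by -0.53 points. These elements were named after their values were seen and get no test. Beyond the promoters, an intronic Mlxipl element 28821 bp from the outermost start, open in all 16 libraries, averaged 91.5 fed and 87.5 fasting (difference -4.05 points, exact permutation p = 0.0312). It was the strongest distal element of that gene, and those of the other genes had exact permutation p of 0.328 to 0.992. An element 5.3 kb downstream of the Thrsp start, chosen for its difference, averaged 32.2 and 4.22 (difference -28.0 points) and was at 74.4 in fed liver, 56.4 in fed brown adipose and 57.7 in fed heart, against 0, 16.6 and 17.2 in fasting. The lipogenic elements above differed between conditions by -10.6 to 10.3 points, with exact permutation p of 0.125 or more.

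Genes with the most similar promoter pattern were sought for the members whose percentile spanned at least 20 points, by Pearson's r over the 16 libraries. These points share tissues and animals, and r is given as a description. For Thrsp the highest were Prmt5 (r = 0.978) and Msrb3 (r = 0.969), and for Me1 they were Nfib (r = 0.967) and Ing3 (r = 0.963), all 4 lowest in fed spleen. For Elovl6 they were Mogat1 (r = 0.784), an acyltransferase of glyceride synthesis, and Mab21l2 (r = 0.773). The percentile of Prmt5 ran from 99.3 to 99.995, so a high r did not mean a like range. Thrsp and Me1 themselves were lowest in fed spleen, at 0 and 45.9, and r without spleen was not computed.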

How the data were processed

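ATAC-seq peak lists of 16 mouse tissue libraries were analysed. As the study's methods and labels state, the authors aligned reads with Bowtie2 to GRCm38, removed duplicate and mitochondrial reads, shifted ends for Tn5, called peaks with MACS2 and kept the strongest rows of each list after blacklist filtering (298996 to 299529); versions are not given in the sources used here. Fold enrichment, as deposited, is the ratio of tags at the summit to those expected there, each with 1 added. The −log10 p and −log10 q values deposited come from the authors' peak caller. Neither is scaled between libraries, so rows were ranked by −log10 p within each list. Both columns together gave whole tag numbers (within 0.001) for nearly all rows, with percentages between 99.999 and 100, and the lowest common expected number served as background. Starts, exons and genes came from GENCODE vM21, and bases from the RefSeq copy of GRCm38.p6, whose coordinates are those of the files. Coordinates are printed counting from 1.

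The members and lists were chosen with earlier results of these data known. Exact sign flips over 8 tissues and exact choices of 3 tissues were adjusted by Benjamini-Hochberg over 18858 genes or 495794 elements. Each p-value refers to these pooled libraries alone. Named were all 10 members, other pathway genes with p under 0.05, the extreme distal elements of each member and the likest genes; exceptions are marked in the text. Of the 7 motifs searched, TGTTTAC and TTGCGCAA were added after results had been seen. Alternatives were fold ranks, distinct regions, a 1000 bp window, q under 0.01, equal depth, limma 3.58.1 on log2 fold, 1001 bp elements and leaving out each tissue. The fed white adipose library was left out as a later alternative. Steps were tested on simulated data with Python 3.11.15, numpy 2.4.6, pandas 2.3.3, scipy 1.17.1 and R 4.3.3. Some items are not reported here.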

Additional observations from a re-analysis of the deposited data

How the results depend on the processing

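The fasting test pairs libraries by tissue, and the labels carry no replicate numbers by which to pair further. No gene or element passed adjustment under any alternative run. Of 288 alternative values of the member promoters, 240 kept direction and side of the threshold, and of 185 for the named elements 142 did and none reversed; leaving out a tissue raises the smallest p of the tissue test to between 0.0286 and 0.0476. The fasting count of 1 member, Acaca, was 0 by fold ranks, with q under 0.01, at equal depth and by limma, and 0 to 1 without a tissue. The tissue count of 0 members was 1 by fold ranks (Srebf1, -7.65 points) and 1 at equal depth (Scd1, 7.02 points), and 0 to 1 without a tissue. Fasting element counts of 15 were 8 by fold ranks and 8 to 11 without a tissue, and tissue element counts of 37 were 26 to 77 without a tissue. Fasting minus fed changed sign by fold ranks for Fasn (4.56 points), Acly (1.17), Scd1 (0.811), Elovl6 (4.09), Srebf1 (4.93) and Mlxipl (1.12), over distinct regions for Acacb (0.0501) and Mlxipl (0.00094), and in the 1000 bp window for Thrsp (-4.09). By limma on log2 fold it did so for Fasn (0.14), Elovl6 (0.017), Srebf1 (0.13) and Mlxipl (0.023). Lipogenic minus other changed sign by fold ranks for Acacb (-7.29), Scd1 (-0.25), Elovl6 (-8.61) and Mlxipl (-2.33), by limma for Acacb (-0.28), Elovl6 (-0.34) and Mlxipl (-0.10), and without fed white adipose for Elovl6 (-0.693). Without single tissues, fasting minus fed ran from -1.05 to 0.364 for Fasn, -0.656 to 0.151 for Acacb, -1.24 to 0.246 for Mlxipl and -0.935 to 5.19 for Thrsp, and lipogenic minus other from -1.44 to 0.755 for Fasn, -0.517 to 2.08 for Acacb, -1.14 to 0.399 for Acly, -2.07 to 5.55 for Elovl6 and -1.08 to 0.213 for Srebf1. The cause was not tested. With 1 library per tissue and condition, a difference in 1 tissue cannot be told from library variation, and weak peaks depend on depth.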
